A study of Mus musculus with 96 samples.

Results

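The 36 genes described here encode the machinery by which islet cells fuse hormone granules with the cell surface, together with the granins and membrane proteins of the granule itself. They were taken from the deposited expression table by gene symbol alone, and 36 of 36 were found among its 21990 genes. By role they are 4 SNAREs of the plasma membrane (Stx1a, Stx3, Stx4a, Snap25), 3 SNAREs of the granule (Vamp2, Vamp3, Vamp8), 4 synaptotagmins (Syt4, Syt5, Syt7, Syt13), 7 factors of priming and fusion control (Doc2b, Rims2, Unc13a, Cplx1, Cplx2, Cadps, Cadps2) and 6 Rab proteins or their effectors (Rab3a, Rab3b, Rab27a, Rab37, Rph3al, Sytl4). The others are 2 genes of SNARE disassembly (Napa, Nsf), 7 granins and related contents (Chga, Chgb, Scg2, Scg3, Scg5, Pcsk1n, Vgf) and 3 proteins of the granule membrane (Ptprn, Ptprn2, Slc30a8).

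Insulin, glucagon and somatostatin are stored in dense-core granules, which form when granins and prohormones condense in the Golgi. Rab proteins and their effectors bring a granule to the membrane, priming factors make it ready, and calcium entering the cell acts on synaptotagmins so that granule and membrane SNAREs zip together and fuse both membranes. The same core machinery releases transmitter in neurons, whereas hepatocytes secrete constitutively and have no such granules.

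Islets and liver came from 48 male C57BL/6N mice bought at 4 weeks of age and fed a high-fat diet (HFD, 60% fat) or a chow diet (CD, 13.5% fat). At each of weeks 4, 8, 12, 16, 20 and 24 of the diet, 4 mice of each diet gave 1 islet and 1 liver library, which makes 12 groups and 48 libraries for each tissue. The mice carried no transgene and different mice were used at each week. The islets were whole and picked by hand after digestion with collagenase, so they hold all endocrine cell types and some exocrine tissue, and chow differs from the high-fat food in more than fat.

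The values are FPKM, fragment counts divided by transcript length and library size, a level that can be compared between genes. Insulin (Ins1 and Ins2) made up 53.7% to 75.1% of the summed FPKM of an islet library, and Alb, the albumin gene of hepatocytes, had 0.12 to 48.84 FPKM in islets and 16734 to 46057 FPKM in liver. At week 12, insulin took 53.7% to 59.2% of the sum in CD and 67.3% to 71.4% in HFD islets. It took 60.5% to 65.3% and 67.9% to 73.8% at week 16. The level of any other gene relative to the sum thus depends, at these weeks, on whether insulin is counted in it. The summed alpha cell markers (5 genes, Gcg among them) ran from 14968 to 16050 FPKM in CD and 12590 to 15240 FPKM in HFD islets at week 4, and from 7229 to 13186 and 1219 to 2362 FPKM at week 24. The delta cell markers (3 genes, Sst among them) fell likewise, from 2317 to 2958 FPKM in CD to 330.2 to 634.0 FPKM in HFD islets at week 24, and the acinar markers (10 genes) were highest in CD islets of week 12, at 41001 to 99023 FPKM, against 7643 to 37911 FPKM in HFD islets. The acinar markers lay the other way at week 20, at 4265 to 11717 FPKM in CD and 10314 to 27018 FPKM in HFD islets. Of the 5 alpha and 3 delta markers, 5 and 3 passed the test for a lower mean level in HFD islets. Of the 8 beta cell markers, 5 passed it for a higher and 2 for a lower mean level. The 7 libraries least like the rest by their median correlation were 6 of week 12 and that of mouse HFD118 at week 4.

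Promoters of the members were read from RefSeq (GRCm38.p6), as the 250 bases before and the 50 bases from the transcription start, and 24 of the 36 members were matched by Entrez identifier. The promoters of 2 granin genes are shown because both hold the cyclic AMP response element TGACGTCA, a palindrome that reads alike on both strands, while Scg2 alone of the pair passed the test of diet given later. The motif, in capitals, begins 68 bases before the start of Scg2 (chr1:79439977-79440276, minus strand) and 72 bases before that of Chgb (chr2:132781392-132781691, plus strand).
Scg2: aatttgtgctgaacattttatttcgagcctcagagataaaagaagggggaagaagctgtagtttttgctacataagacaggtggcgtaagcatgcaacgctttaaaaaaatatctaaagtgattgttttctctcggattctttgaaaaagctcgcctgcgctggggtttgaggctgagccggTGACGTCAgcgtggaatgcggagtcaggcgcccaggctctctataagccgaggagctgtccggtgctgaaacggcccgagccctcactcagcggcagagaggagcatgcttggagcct
Chgb: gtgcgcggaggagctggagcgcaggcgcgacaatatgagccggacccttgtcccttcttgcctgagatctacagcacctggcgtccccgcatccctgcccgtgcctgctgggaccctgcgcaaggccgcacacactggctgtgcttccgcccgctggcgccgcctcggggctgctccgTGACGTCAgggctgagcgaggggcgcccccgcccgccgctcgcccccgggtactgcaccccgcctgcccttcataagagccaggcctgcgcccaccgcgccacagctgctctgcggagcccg
The motif was in a promoter of 3 of the 24 members, the third being Napa, and in 2.03% of the 27025 genes with a promoter. Since only 66.7% of the members were matched, no share over the members is read from this, and a match is a description of letters, not a binding site. A link of the motif to diet was not tested.

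In CD islets, the members differed widely in level. Chga, the founding granin, had a median of 5905 FPKM over the 24 CD libraries, from 4689 to 8268 FPKM, and Scg2, secretogranin II, had 2781 FPKM, from 2233 to 3684 FPKM. Scg3, Slc30a8, Scg5, Pcsk1n, Chgb, Syt13, Ptprn2, Ptprn, Cplx2 and Vamp2 followed, with medians from 666 down to 100.5 FPKM. The next 19 members lay between 10 and 100 FPKM, from Napa at 97.5 FPKM to Rab3b at 10.3 FPKM. Among them were the SNARE disassembly genes, most Rab genes, the SNAREs Snap25, Vamp8, Vamp3, Stx4a and Stx3 and the synaptotagmins Syt7, Syt4 and Syt5. Below 10 FPKM were 5 members, Rims2 (7.98), Stx1a (4.94), Cadps2 (2.91), Doc2b (1.19) and Cplx1 (0.695 FPKM). The transcripts of the granins other than Vgf (12.2 FPKM) were thus above those of every SNARE. The transcripts of Stx1a and Snap25, partners in 1 complex, stood at 4.94 and 57.2 FPKM.

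**Figure D1:**
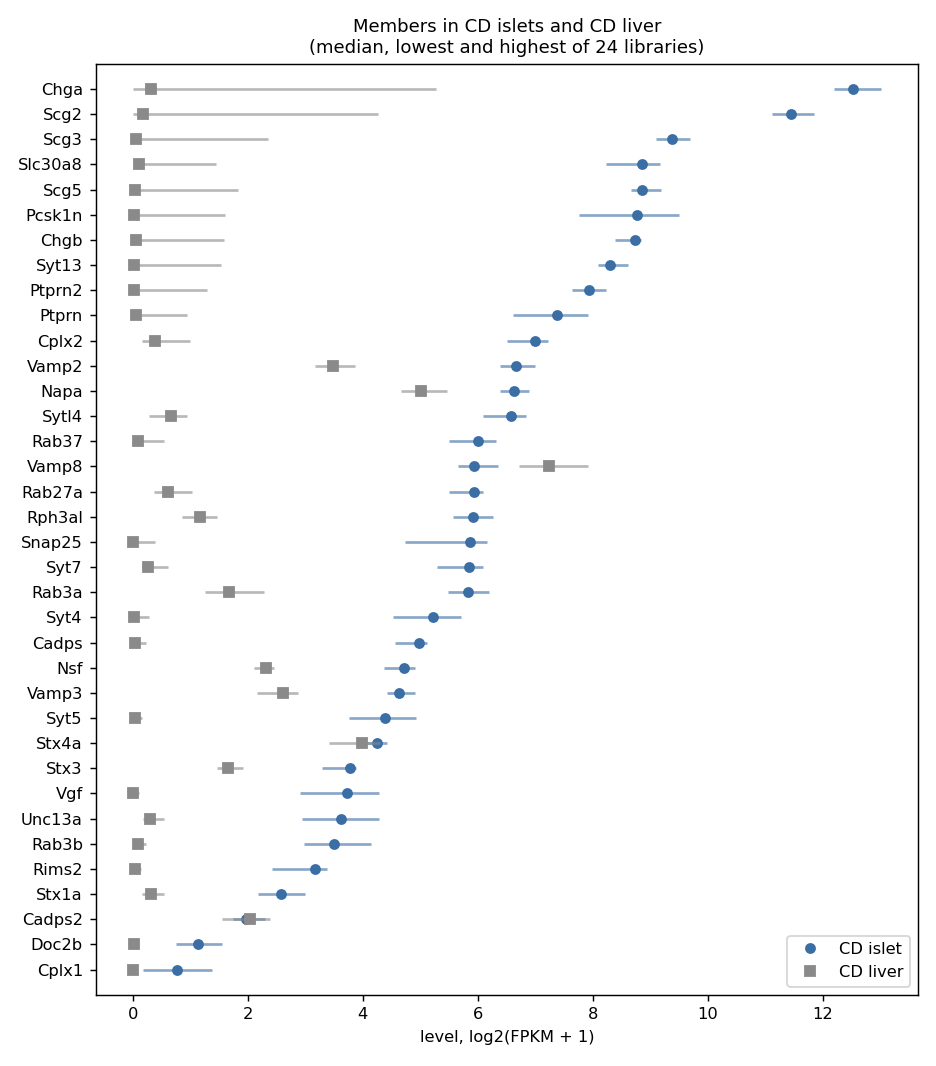
Levels of the 36 members in CD islets (blue circles) and CD liver (grey squares), as log2(FPKM + 1) on the horizontal axis, with the median as the marker and the lowest and highest of 24 libraries as the line. Vamp8 and Cadps2 are the members whose liver marker lies to the right of the islet marker, and the grey lines of Chga and Scg2 reach 37.6 and 18.1 FPKM in libraries that stood apart.

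In CD liver, 26 members had a median under 1 FPKM, and 20 of those with a liver median above 0 were at least 100 times higher in islets by their medians. Doc2b, Unc13a and Stx1a were 79.3, 48.0 and 19.7 times higher in islets. Snap25, Vgf and Cplx1 were listed at a median of 0 in liver, so no ratio is given for them. The 10 members at 1 FPKM or more in liver were Vamp8 (150.6), Napa (31.1), Stx4a (14.9), Vamp2 (10.1), Vamp3 (5.14), Nsf (4.00), Cadps2 (3.11), Rab3a (2.20), Stx3 (2.14) and Rph3al (1.25 FPKM). Vamp8, a SNARE of endosomes and of constitutive and exocrine secretion, had a higher median in liver than in islets (60.3 FPKM), and Cadps2, a relative of the priming factor Cadps, had close values in both tissues, with overlapping ranges. Liver libraries of 2 CD mice stood furthest apart. That of mouse CD306 at week 12 had 2467 FPKM of Ins2 and 37.6 FPKM of Chga, and that of mouse CD407 at week 16 had 1738 and 18.9 FPKM, where the median of the 48 liver libraries was 7.22 FPKM of Ins2 and 0.125 FPKM of Chga. The highest liver values of Chga and Scg2 among CD mice come from these 2 libraries. Ins2 was also at 257 FPKM in liver of CD304 at week 12 and at 272 FPKM in that of HFD617 at week 24. Every liver library of weeks 4 and 24 had at least 4.18 FPKM of Ins2, while those of week 20 had 0 FPKM. The liver medians and ratios above include all such CD libraries, and the source of islet transcripts in liver was not tested.

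The diet question was asked in several ways. The mean diet effect is the mean of the 6 weekly differences, HFD minus CD, on the log2(FPKM + 1) scale, from a single limma fit of the 48 islet libraries, in which 12378 genes reached 1 FPKM in at least 4 libraries. A gene is called at a Benjamini-Hochberg adjusted p under 0.05 over all genes tested, with no minimum fold change, and differences of low genes are understated on this scale. Of the 36 members, 4 were called higher (Scg2, Pcsk1n, Syt4, Vamp8) and 7 lower (Doc2b, Cplx1, Stx1a, Sytl4, Rims2, Vamp2, Rab27a), while over all genes 16.6% were called higher and 22.0% lower. The called members are 30.6% of the list, below the share of all genes called in either direction. The median mean diet effect was -0.01 over the members and -0.01 over all genes tested, and 25 members had an effect under 0.1 in absolute value. In bulk islets, fewer cells of a type and less RNA per cell cannot be told apart.

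Of these calls, Doc2b and Cplx1 need a separate word, since they were at or above 1 FPKM in 20 and 6 CD libraries but in 2 and 1 HFD libraries and passed the filter mainly through the diet in which they are high. Over the other 34 members, which were at 1 FPKM or more in every islet library, 4 were called higher and 5 lower. The counts also depend on the scaling between libraries. With median ratio scaling, 8 members were called higher and 6 lower, where 28.7% of all genes were called higher and 19.5% lower. Insulin was left out of the library total by dividing each library by the share of its summed FPKM that was not insulin. The share of insulin among the fragments is unknown, so this scaling may not equal leaving out its fragments. With insulin left out in this way, 26 members were called higher and 3 lower (Doc2b, Cplx1 and Stx1a). Of all genes, 57.5% were called higher and 8.70% lower, as their median itself moved to 0.15. With the alpha, delta and acinar marker levels as covariates, 0 members and 5 genes in all were called by limma, and 829 of the 12378 genes had an unadjusted p under 0.05. Vamp2 (0.15), Sytl4 (0.15) and Vamp8 (-0.11) changed sign there without passing. The alpha and delta markers were themselves lower in HFD islets, so this fit cannot tell cell composition and diet apart.

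Within single weeks, 4 HFD libraries were compared with 4 CD libraries. At week 4, 0 of 36 members and 0% of 11569 genes were called by limma, although 5 members and 854 genes had an unadjusted p under 0.05. At week 8, 1 of 34 members tested was higher (Scg2) and 1 lower (Slc30a8), against 0.602% and 4.67% of all genes. At week 12, 3 were higher (Syt5, Ptprn, Pcsk1n) and 1 lower (Stx1a) of 34, against 2.18% and 2.35%. At week 16, 2 were higher (Scg2, Pcsk1n) and 3 lower (Doc2b, Stx1a, Rims2) of 35, against 3.30% and 5.15%. At week 20, 2 were lower (Doc2b, Rims2) and none higher of 35, against 3.21% and 1.53%. Doc2b passed the filter of weeks 16 and 20 through CD islets alone, so its place in these counts was partly built in. Apart from it, Stx1a and Rims2 were called lower at week 16 and Rims2 alone at week 20. At week 24, 2 were higher (Scg2, Syt4) and none lower of 34, against 6.57% and 1.73%.

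**Figure D2:**
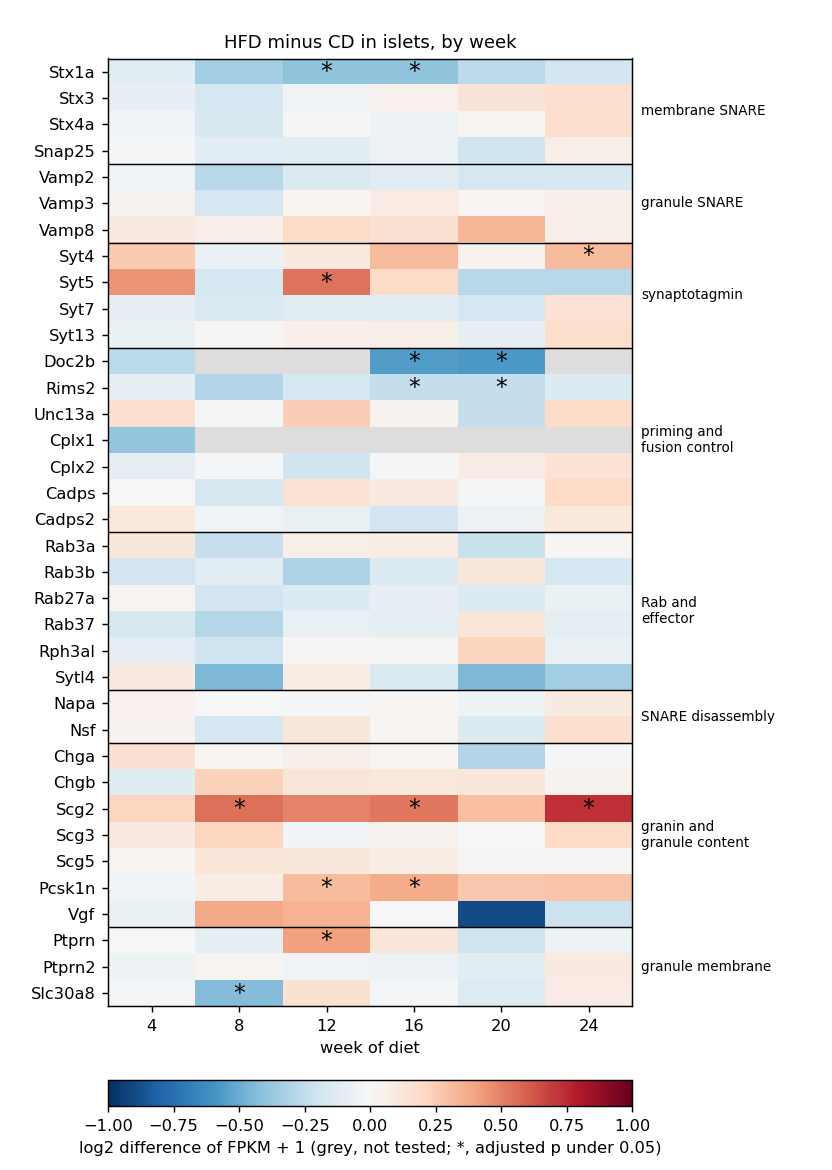
Difference HFD minus CD of each member in each week, as log2 of FPKM + 1, with red for higher and blue for lower in HFD islets, grey where the gene was not tested and an asterisk where the adjusted p was under 0.05. The asterisks number 15 and Scg2 has 3 of them, in a row that is red in every week, while week 4 has none.

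In all, 9 members made these 15 weekly calls and 27 members made none. Several of the counts changed when a single library was left out. With all libraries, 5.27%, 4.53%, 8.45%, 4.74% and 8.30% of all genes were called at weeks 8, 12, 16, 20 and 24. Where no share of all genes is given below, a change of the members was not set apart from one of all genes. At week 8, 7 members were called without mouse HFD217 (2 higher and 5 lower), where 15.2% of all genes were called, and 1 was called without CD208, HFD211 or HFD213. At week 12, 7 were called without CD304, where 7.19% of all genes were called. At week 16, 3 were called without CD401, CD403, CD405 or HFD411. At week 20, 12 were called without HFD511 (4 higher and 8 lower), where 18.7% of all genes were called. At that week, 1 was called without CD501 and 0 without any other single library, and HFD511 had 4630 FPKM of Gcg where the other HFD libraries had 1460 to 1914 FPKM. At week 24, 1 was called without CD606 or CD608. With insulin left out of the total, 31 members were called at week 12 (30 higher), against 69.8% of all genes (67.9% higher). Under that scaling, 28 were called at week 16 (26 higher), against 68.1% of all genes (64.2% higher). The median of all genes moved to 0.46 and 0.34 at these weeks. With median ratio scaling, 6 were called higher and 1 lower at week 12, against 4.47% and 3.06% of all genes.

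Scg2 gave the clearest difference among the granins. It encodes secretogranin II, which helps to form granules and is cut to the peptide secretoneurin. At week 8, the 4 CD mice had 3013, 2659, 2793 and 2644 FPKM and the 4 HFD mice had 4457, 3959, 4150 and 3759 FPKM. At week 16, the values were 2910, 3684, 3534 and 3636 FPKM in CD and 5173, 5255, 4572 and 4792 FPKM in HFD islets. At week 24, they were 2447, 3186, 3136 and 2363 FPKM in CD and 4000, 5797, 4112 and 4582 FPKM in HFD islets. The lowest HFD mouse lay above the highest CD mouse in all 3 weeks, and also at weeks 12 and 20, but not at week 4.

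Scg2 rose from 2777 ± 171 to 4081 ± 297 FPKM at week 8, from 3441 ± 360 to 4948 ± 322 at week 16 and from 2783 ± 438 to 4623 ± 822 at week 24 (SD, n = 4), which is 1.47-fold, 1.44-fold and 1.66-fold. The log2 differences were 0.55 ± 0.08 (SE, adjusted p = 0.0073), 0.53 ± 0.08 (0.00069) and 0.73 ± 0.13 (0.0052). Each of these calls was kept in 8 of 8 fits that left out 1 library, but that of week 8 was lost when insulin was not counted in the total (0.67, adjusted p = 0.065). The mean diet effect was 0.47 ± 0.04 (adjusted p = 8.5e-12), the largest rise among the members, and it was called in 48 of 48 fits without 1 library. Relative to the median of all genes it was 0.49 with median ratio scaling and 0.51 with insulin left out.

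Pcsk1n, which encodes proSAAS, an inhibitor of the prohormone convertase PC1/3, also rose. At week 12, the CD mice had 351, 400.4, 427 and 376 FPKM and the HFD mice 470, 475, 492 and 495 FPKM, with no overlap. The log2 difference was 0.32 ± 0.08 (adjusted p = 0.012) and the mean diet effect 0.21 ± 0.05 (adjusted p = 0.00023). The week 12 call was lost with all 12 groups in a single fit (adjusted p = 0.060) and with limma without trend and robust variances (0.082). The call of week 16 (0.37 ± 0.10, adjusted p = 0.043), where the groups overlap, was kept without CD407 or HFD416 and lost without any other single library, with no filter (adjusted p = 0.062) and with limma without trend and robust variances (0.059).

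The other 5 members of this role did not pass. Chga had a mean diet effect of -0.01 ± 0.05, Chgb 0.08 ± 0.04, Scg3 0.08 ± 0.04, Scg5 0.06 ± 0.03 and Vgf -0.07 ± 0.10 (SE). At week 24, the level of Chgb was 368 ± 24 FPKM in CD islets against 380 ± 53 FPKM in HFD islets (SD, n = 4). Scg3 carries Chga to the granule membrane and Scg5 encodes 7B2, the chaperone of the convertase PC2. Vgf had the widest weekly range of the members, from -0.90 at week 20 to 0.38 at week 8, and neither week passed. Without HFD511, the week 20 difference of Vgf was -1.15 (adjusted p = 0.017).

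**Figure D3:**
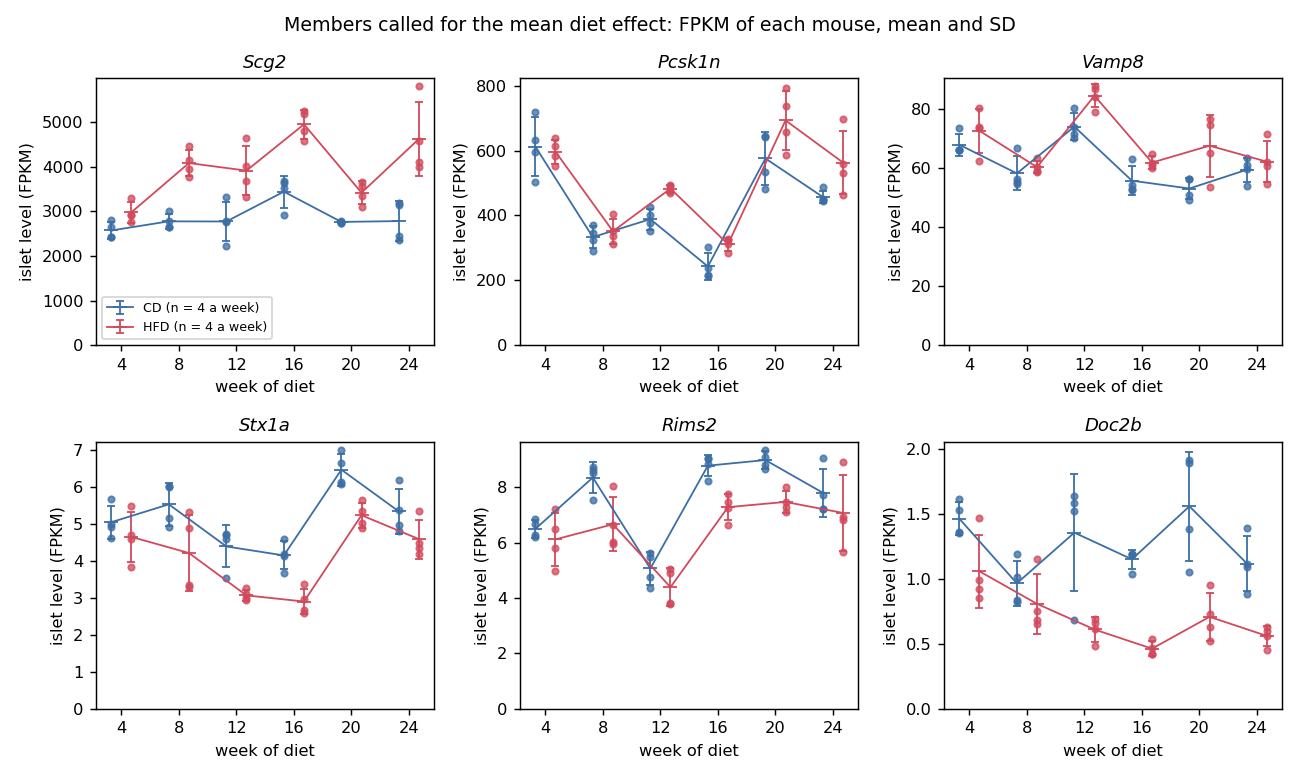
Islet level in FPKM against week of diet for 6 members called for the mean diet effect, with a point for each mouse, the mean of 4 mice and bars of 1 SD, CD in blue and HFD in red. The HFD means of Scg2 lie above the CD means in all 6 weeks, from 2980 against 2573 FPKM at week 4 to 4623 against 2783 FPKM at week 24, and those of Stx1a, Rims2 and Doc2b lie below in all 6.

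Among the SNAREs of the plasma membrane, Stx1a fell. It encodes syntaxin 1A, which holds the docked granule together with SNAP-25. At week 16, the CD mice had 3.67, 4.17, 4.14 and 4.59 FPKM and the HFD mice 2.60, 2.96, 2.67 and 3.36 FPKM, so that the groups did not overlap. The means were 4.14 ± 0.38 and 2.90 ± 0.35 FPKM (SD, n = 4), a log2 difference of -0.40 ± 0.09 (adjusted p = 0.011) that was kept in 8 of 8 fits without 1 library. At week 12, the difference was also -0.40 (adjusted p = 0.042) but was lost without any single library other than CD304 or HFD318, and with no filter (adjusted p = 0.057). Both weekly calls were lost with insulin left out, with differences of -0.14 at week 16 and -0.01 at week 12. The mean diet effect was -0.28 ± 0.04 (adjusted p = 6.4e-07), and with insulin left out it was -0.15 (adjusted p = 0.0083), or -0.30 relative to all genes.

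Snap25 had a mean diet effect of -0.07 ± 0.04, Stx4a -0.01 ± 0.03 and Stx3 0.01 ± 0.03 (SE), and none of them passed. Stx4a (syntaxin 4) and Stx3 are related syntaxins that also serve many other secretory cells. In both, the difference was -0.16 at week 8 and 0.17 at week 24, and the late weeks (16, 20 and 24) were compared with the early weeks (4, 8 and 12) in the same fit. Stx3 was the single member called there, with a late minus early change of 0.21 ± 0.06 (adjusted p = 0.033), and 0 members were called in the other direction, against 2.19% of all genes higher and 0.969% lower. At week 24, the level of Stx3 was 12.5 ± 0.9 FPKM in CD islets against 14.1 ± 0.7 FPKM in HFD islets (SD, n = 4), with no overlap. The call of Stx3 was lost with median ratio scaling (adjusted p = 0.061), with insulin left out (0.77), and without CD103, CD104, CD307, CD501, CD608, HFD112, HFD114, HFD212, HFD315, HFD414, HFD516, HFD517, HFD518 or HFD616. Without HFD511, 3 members were called, Stx3, Syt5 and Vgf, and without HFD614, 2 were called, Stx3 and Vgf.

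Of the granule SNAREs, Vamp2 fell and Vamp8 rose, each by a small amount. Vamp2, the main SNARE of insulin granules, had 106, 92.2, 127 and 111 FPKM in CD and 80.1, 87.7, 89.3 and 101 FPKM in HFD islets at week 8, the week of its smallest p, and these groups overlap. Over all weeks, the effect was -0.15 ± 0.04 (adjusted p = 0.0014), and in all 6 weeks the difference was below 0. Vamp8 had 49.2, 51.0, 56.3 and 56.2 FPKM in CD and 53.8, 65.3, 76.9 and 74.8 FPKM in HFD islets at week 20. Its mean diet effect was 0.15 ± 0.03 (adjusted p = 0.00083), above 0 in all 6 weeks, and neither gene was called in a single week. The direction of Vamp2 turned to 0.04 with insulin left out, while relative to the median of all genes it was -0.11. Vamp3, the cellubrevin of recycling vesicles, had a mean diet effect of 0.01 ± 0.03.

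Among the synaptotagmins, Syt4 rose and the others did not pass for the mean diet effect. At week 24, Syt4 had 40.6, 31.1, 39.3 and 38.3 FPKM in CD and 43.7, 51.8, 48.1 and 43.1 FPKM in HFD islets, with no overlap. The log2 difference was 0.32 ± 0.09 (adjusted p = 0.043), which was kept without CD601, HFD611 or HFD617 and lost without any other single library of the week. Of the 6 processing alternatives without a minimum fold change, another pseudocount kept this call and the others lost it, with adjusted p from 0.064 to 0.092. Its mean diet effect was 0.16 ± 0.05 (adjusted p = 0.012). Syt5 was called at week 12 alone, where it went from 21.5 ± 1.8 to 32.1 ± 6.2 FPKM (SD, n = 4), a log2 difference of 0.54 ± 0.12 (adjusted p = 0.0057) kept in 8 of 8 fits without 1 library. It was lost with all 12 groups in a single fit (adjusted p = 0.056) and with no filter (0.054). At weeks 20 and 24, the difference of Syt5 was -0.28 in both, and its interaction of diet and week had an adjusted p of 0.082. Syt7, a calcium sensor of insulin release, had a mean diet effect of -0.08 ± 0.04, and Syt13, the most abundant synaptotagmin of these islets at a CD median of 312 FPKM, had 0.02 ± 0.03.

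Of the 7 factors of priming and fusion control, Rims2 fell, and the low genes Doc2b and Cplx1 were called lower after passing the filter mainly through CD islets. Rims2, whose protein ties Rab3 on the granule to the release site, had 9.10, 8.81, 8.66 and 9.36 FPKM in CD and 8.02, 7.29, 7.09 and 7.48 FPKM in HFD islets at week 20, with no overlap. The log2 difference of week 20 was -0.24 ± 0.06 (SE) with an adjusted p of 0.0499. That of week 16 was -0.24 ± 0.07 with an adjusted p of 0.046. These calls were at the threshold, and that of week 16 was lost without any single library and that of week 20 without any but HFD511. The week 20 call was lost in 6 of 6 of these alternatives (adjusted p from 0.051 to 0.11), and that of week 16 with all groups in a single fit (0.13) and with insulin left out, where the difference was 0.09 (0.43). The mean over weeks was -0.19 ± 0.04 (adjusted p = 0.00015), below 0 in all 6 weeks, and -0.04 with insulin left out (adjusted p = 0.46), or -0.19 relative to all genes.

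Doc2b, a calcium sensor with high affinity that binds syntaxin, had 1.19, 1.04, 1.19 and 1.18 FPKM in CD and 0.42, 0.54, 0.47 and 0.42 FPKM in HFD islets at week 16. All HFD mice lay below all CD mice, and the means were 1.15 ± 0.07 and 0.463 ± 0.057 FPKM (SD, n = 4), a log2 difference of -0.56 ± 0.08 (adjusted p = 0.00068). With a pseudocount of 0.1 the difference was -1.16. At week 20, it was -0.57 ± 0.13 (adjusted p = 0.039), which was lost with no filter (0.052) and without any single library other than CD501 or HFD511. In both weeks, Doc2b was tested because CD islets reached 1 FPKM, and no HFD islet did, so a difference was built into its passing and these values are given as a description. The mean diet effect was -0.41 ± 0.05 (adjusted p = 1.4e-09), or -0.79 with a pseudocount of 0.1. Cplx1, complexin 1, was lower still, at 0.86, 1.29, 1.13 and 1.61 FPKM in CD and 0.54, 0.65, 0.47 and 1.15 FPKM in HFD islets at week 4, and at 0.02 to 0.16 FPKM in HFD against 0.25 to 0.62 FPKM in CD islets at week 24. Its mean diet effect was -0.46 ± 0.06 (adjusted p = 2.4e-07), and at week 4, the one week in which it passed the filter, the groups overlap and the adjusted p was 0.67. Both genes lie near or under 1 FPKM, and 2 decimals leave few digits there. HFD islets alone would have passed neither gene into the fit of 48 libraries, which asked for 1 FPKM in at least 4 libraries. Their mean diet effects are therefore also given as a description, since a difference was built into their passing.

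The more abundant paralog Cplx2, at a CD median of 126 FPKM, had a mean diet effect of -0.02 ± 0.04. Unc13a (Munc13-1) had 0.06 ± 0.05, Cadps (CAPS1) 0.04 ± 0.04 and Cadps2 -0.02 ± 0.03, and none of these 4 was called in any week.

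Among the Rab proteins and their effectors, Sytl4 and Rab27a fell. Sytl4 encodes granuphilin, which docks granules to syntaxin and binds Rab27a. At week 8, it had 96.7, 106, 101 and 110 FPKM in CD and 78.1, 94.8, 57.9 and 74.9 FPKM in HFD islets, with no overlap, but this week did not pass (-0.45 ± 0.12, adjusted p = 0.056). Its mean diet effect was -0.20 ± 0.06 (adjusted p = 0.0045), -0.02 with insulin left out (adjusted p = 0.82), or -0.17 relative to all genes. Rab27a had 53.9, 60.3, 53.9 and 55.9 FPKM in CD and 52.3, 55.0, 44.3 and 45.1 FPKM in HFD islets at week 8, where the groups overlap. Its mean diet effect of -0.10 ± 0.04 had an adjusted p of 0.047, was called in 18 of 48 fits without 1 library and turned to 0.09 with insulin left out, where it was -0.06 relative to all genes. Rab3a, the most studied Rab of regulated secretion, had -0.03 ± 0.04, Rab3b -0.13 ± 0.06, Rab37 -0.10 ± 0.06 and Rph3al (Noc2, an effector of Rab3 and Rab27) -0.02 ± 0.04. For SNARE disassembly, Napa (alpha-SNAP) had 0.01 ± 0.03 and the ATPase Nsf 0.00 ± 0.03.

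None of the 3 genes of the granule membrane was called for the mean diet effect. In the test of the diet by week interaction, Slc30a8 (adjusted p = 0.0058) and Ptprn (adjusted p = 0.026) were called. These are 2 of 36 members (5.56%) against 4.25% of all genes, a share close to that of the table, and a member not called was not shown to be steady. Slc30a8 encodes ZnT8, which loads the granule with the zinc that insulin crystals need. At week 8, it had 524, 461, 577 and 533 FPKM in CD and 396, 387, 351 and 414 FPKM in HFD islets, with no overlap and a difference of -0.43 ± 0.08 (adjusted p = 0.018) that was lost without CD208, HFD211 or HFD213, with median ratio scaling (-0.30, adjusted p = 0.11) and with insulin left out (-0.32, adjusted p = 0.41). In the other weeks, its difference lay between -0.13 and 0.15 and the groups overlapped.

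Ptprn encodes IA-2, a receptor-like protein of the granule membrane and an autoantigen of type 1 diabetes. At week 12, it had 158, 149.6, 145 and 145.5 FPKM in CD and 194, 212, 197 and 192 FPKM in HFD islets, with no overlap. The difference was 0.41 ± 0.08 (adjusted p = 0.0015), kept in 8 of 8 fits without 1 library. In the other weeks, it lay between -0.20 and 0.12. Ptprn2 (phogrin), its paralog, stayed between -0.12 and 0.09 and was called in no week. The interaction of Ptprn was lost without CD307, CD308 or HFD315, all of week 12, and without the whole of week 12 (adjusted p = 0.40), and both interactions were lost with median ratio scaling (adjusted p = 0.14 for Slc30a8 and 0.076 for Ptprn). Without HFD511, 4 members were called, with Syt5 and Vgf added, and with insulin left out 26 were called, where 7980 of 14106 genes passed.

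**Figure D4:**
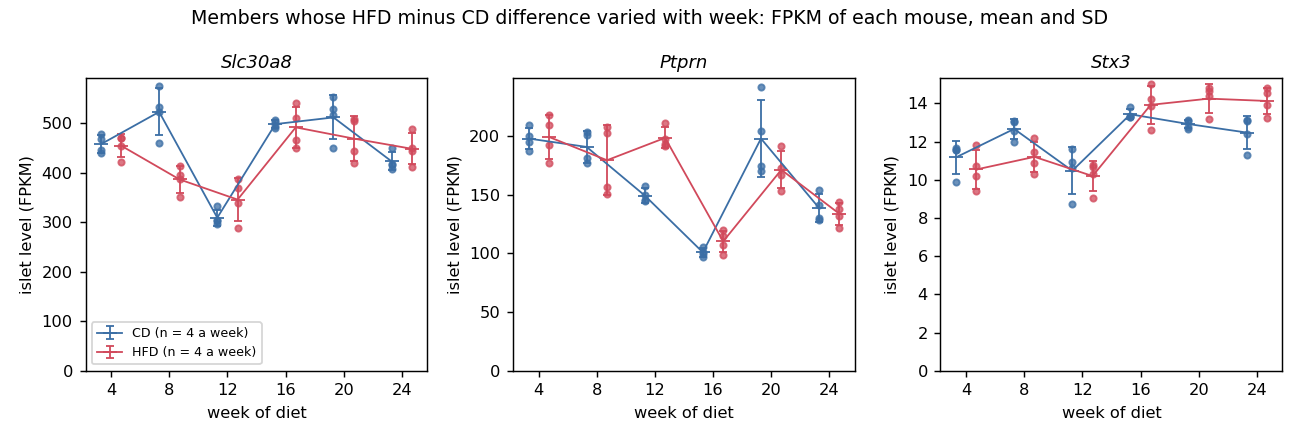
Islet level in FPKM against week of diet for the members called by the interaction (Slc30a8 and Ptprn) or by the late minus early contrast (Stx3), with a point for each mouse, the mean of 4 mice and bars of 1 SD, CD in blue and HFD in red. Slc30a8 separates by diet at week 8, 523 against 387 FPKM, and Ptprn at week 12, 149 against 199 FPKM, while the CD means of both move widely between weeks.

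The level of most members also varied with the week of sampling. Among CD islets alone, 29 of 36 members (80.6%) differed between weeks, against 77.5% of all genes, so this share too is close to that of the table. The members not called were Rab27a, Chgb, Cplx2, Vamp2, Vamp3, Syt7 and Rab37, all with a ratio between their highest and lowest weekly CD mean of at most 1.25. The ratio was at least 1.5 in 13 members. Pcsk1n went from 243 ± 42 FPKM at week 16 to 612 ± 90 FPKM at week 4 (adjusted p = 1.7e-13), a ratio of 2.52, while its HFD to CD ratio in the called weeks was 1.24 and 1.28. Snap25 was lowest at week 12 (33.2 FPKM) and highest at week 16 (68.3 FPKM), and Ptprn ran from 101 FPKM at week 16 to 198 FPKM at week 4. Mice of different weeks also differ in age, and whether libraries of a week were made together is not given in the sources used here, so age and handling cannot be told apart.

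**Figure D5:**
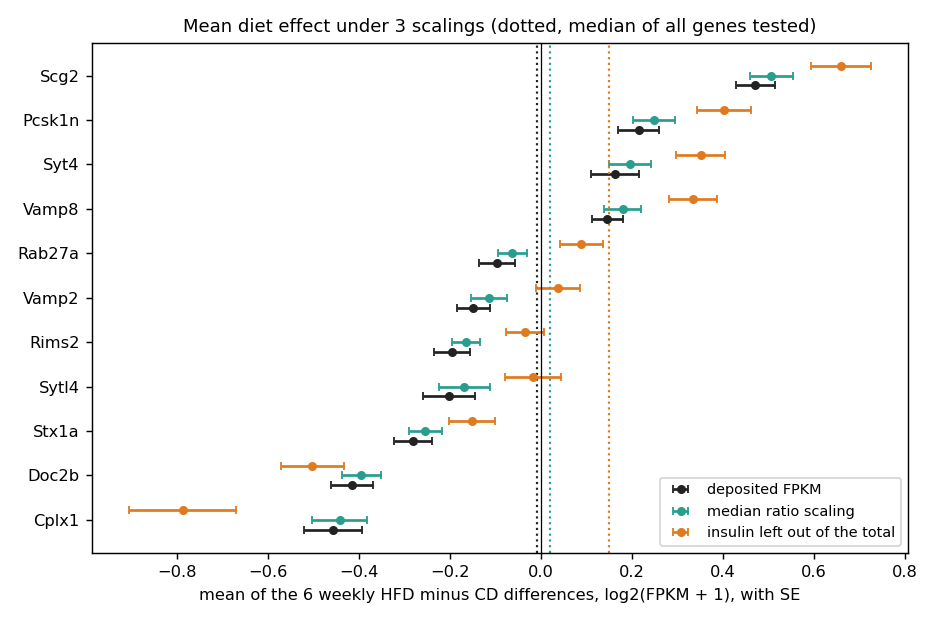
Mean of the 6 weekly HFD minus CD differences of the 11 called members on the log2(FPKM + 1) scale, with SE bars, from the deposited FPKM (black), with median ratio scaling (green) and with insulin left out of the library total (orange), and the median of all genes tested under each as a dotted line. Scg2, Pcsk1n, Syt4 and Vamp8 lie above 0 and Doc2b, Cplx1 and Stx1a below 0 under all 3 scalings, while Vamp2 and Rab27a cross 0 when insulin is left out and the orange dotted line stands at 0.15.

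A list of 101 other genes of the same pathway was examined in the same fits, and 86 of them were tested. For the mean diet effect, 14 were called higher and 25 lower, against 16.6% and 22.0% of all genes, with a median effect of -0.01. These counts became 28 and 22 with median ratio scaling, 57 and 12 of 94 tested with insulin left out, and 0 of 86 with the marker covariates. By role, they included 6 higher and 6 lower of 18 SNARE and SM proteins, none higher and 5 lower of 9 tested calcium sensors and priming factors, and 4 higher and 8 lower of 26 tested Rab proteins and effectors. Stxbp5l, a tomosyn that sequesters syntaxin, had the largest difference (-0.90 ± 0.05, adjusted p = 5.3e-19), from 1.52 ± 0.32 FPKM in CD to 0.0975 ± 0.0386 FPKM in HFD islets at week 24 (SD, n = 4). Mlph, a linker of Rab27a to myosin Va (-0.85 ± 0.08), Syt1, the fast calcium sensor of neurons (-0.54 ± 0.05), and Rab3c (-0.53 ± 0.04) were called lower as well, each at under 7 FPKM in every islet library. Stxbp5l, Syt1 and Rab3c were mostly under 1 FPKM in HFD islets of weeks 12 to 24. Stxbp5l reached 1 FPKM in 20 CD and 6 HFD libraries, Syt1 in 24 and 8, and Rab3c in 18 and 3. HFD islets alone would not have passed Rab3c into the fit, so a difference was built into its passing and its values are given as a description. Without Rab3c and Sytl3, the 2 tested pathway genes that reached 1 FPKM in fewer than 4 libraries of a diet, 14 were called higher and 23 lower. Stxbp6, amisyn, rose (0.34 ± 0.04, adjusted p = 2.7e-08), as did Sytl1 (0.24 ± 0.04), Myo5a (0.17 ± 0.04) and Syp, synaptophysin (0.15 ± 0.03). Baiap3 (-0.36 ± 0.07), Pclo (-0.29 ± 0.06), Sv2b (-0.27 ± 0.05), Stx16 (-0.24 ± 0.04), Exoc6 (-0.22 ± 0.03), Syt2 (-0.21 ± 0.05) and Syt14 (-0.21 ± 0.05) completed the named genes, and with insulin left out Exoc6, Stx16, Pclo, Syt14 and Syt2 were not called. These falls stand beside the lower alpha and delta markers in the same libraries. As these markers move with diet, the fit with marker covariates cannot tell cell composition and diet apart, and composition was not tested in another way.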

How the data were processed

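The authors deposited FPKM values per gene and library, rounded to 2 decimals, with group means and their own comparison columns (fold changes, p-values), which were not used. The submitters' processing notes name HISAT2 2.0.4, Bowtie2 2.2.5, RSEM 1.1.12 and GRCm38.p5. Read counts are not in this table. The depth behind an FPKM value is therefore unknown, and no counting interval is given. Of 21990 genes, 1835 had no values.

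FPKM were transformed to log2(FPKM + 1). Islet libraries were compared with limma 3.58.1 (R 4.3.3; mean-variance trend, robust variances, two-sided, Benjamini-Hochberg over all genes tested). Weekly fits of 4 HFD against 4 CD mice kept genes with at least 1 FPKM in 4 of 8 libraries (3 of 7 with 1 left out). A fit of 48 libraries gave the mean diet effect, the interaction, late minus early weeks and weeks in CD. The fits were tested on simulated data. Tables and figures were made in Python 3.11.15 with pandas 2.3.3, numpy 2.4.6 and matplotlib 3.10.9.

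Members and lists were chosen with earlier results of these data known. Values per mouse are given for members called for the mean diet effect or in at least 2 weeks, at most 14, in the week of their smallest p. Those of Scg2 at weeks 8 and 24, of Slc30a8 and of Ptprn, and other single weeks, were chosen after their values were seen. Other pathway genes are named if called for the mean diet effect at an absolute log2 of at least 0.2 or in at least 2 weeks, at most 15. Each mouse is 1 sample. Mice of both diets share no number, so no pairing applies. The alternatives were another pseudocount, no filter, a minimum fold change, 2 scalings, another variance model, 1 fit of all groups, marker covariates, and leaving out each library.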

Additional observations from a re-analysis of the deposited data

Results flagged for a closer look

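Slc30a8 (adjusted p = 0.00584) and Ptprn (adjusted p = 0.0260) are listed because their diet effect differed between weeks in limma's interaction test over 48 islet libraries. The HFD minus CD difference of Slc30a8 was -0.43 at week 8 and 0.15 at week 12, and that of Ptprn was 0.41 at week 12 and -0.20 at week 20. Both were lost with median ratio scaling, and that of Ptprn without week 12. Stx3 is listed because its diet effect differed between the late and the early weeks, by 0.21 ± 0.06 on the log2 scale (adjusted p = 0.033).

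Doc2b is listed for mouse CD403 at week 16, whose 1.04 FPKM lay apart from 1.18 to 1.19 FPKM in the other CD mice by Dixon's criterion. In 22 groups of 4 mice examined, this was the 1 such case, where chance gives about 1 in 20. All HFD mice of that week were lower still, at 0.42 to 0.54 FPKM.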

How the results depend on the processing

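The number of members called moved by more than 1.5 times under several alternatives, and the cause was not tested unless given. A minimum absolute log2 fold change of 1 left 0 members at weeks 8, 12, 16, 20 and 24, for the mean diet effect and for late against early weeks. With insulin left out of the library total, which raised the median of all genes at weeks 12 and 16, the counts of weeks 8, 12, 16 and 20 were 0, 31, 28 and 1, and those of the all-week tests were 29 for the mean diet effect, 26 for the interaction and 0 for late against early weeks. Over all genes, 0.830%, 69.8%, 68.1% and 3.97% were called at these weeks, and 66.2%, 56.6% and 2.45% in these tests. Median ratio scaling gave 1, 7 and 1 at weeks 8, 12 and 24 and 0 for the interaction and for late against early weeks. All 12 groups in a single fit gave 5 at week 8 and 5 at week 20, no filter gave 2 at week 12 and 0 at week 20, and limma without trend and robust variances gave 1 at week 24. Marker covariates, which move with diet, gave 0 for the mean diet effect. Without week 12, chosen after seeing the data, 1 member was called for the interaction and 2 for late against early weeks. With 1 library left out, counts ran from 1 to 7, 3 to 7, 3 to 4, 0 to 12 and 1 to 3 at weeks 8, 12, 16, 20 and 24, and from 10 to 14 for the mean diet effect, 1 to 4 for the interaction, 0 to 3 for late against early weeks and 26 to 32 for weeks in CD. The mean diet effect changed sign for Vamp2 (0.038) and Rab27a (0.089) with insulin left out, and for Vamp8 (-0.11), Vamp2 (0.15) and Sytl4 (0.15) with marker covariates, and the week 16 difference of Rims2 became 0.085 with insulin left out. Among the other single values outside the fits without 1 library, 154 kept direction and side of the threshold, 40 kept direction and lost the call and 3 gained it. No paired analysis was possible because different mice were fed each diet and the replicate numbers follow the order of the records.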
